A study of Mus musculus with 2 samples.

Results

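Collagen chain genes were all genes whose symbol has the form Col, a number, the letter a and a number. There were 44 of them among the 32285 genes of the count tables, sorted by the kind of collagen they build into 11 fibrillar, 9 FACIT (fibril-associated), 6 basement membrane, 6 beaded filament, 4 transmembrane, 3 network and 2 multiplexin genes, with Col7a1, Col26a1 and Col28a1 left as others. Their levels were read in bone marrow stromal cell cultures, the plastic-adherent cells of mouse marrow, by droplet single-cell RNA sequencing of the 3′ ends of mRNA. The WT library came from Slc31a1flox/flox littermates, which carry the floxed copper importer gene without Cre. The cKO library came from Prrx1-Cre+/-; Slc31a1flox/flox mice, in which Cre recombinase is driven by Prrx1, a gene of limb mesenchyme, so that blood and endothelial cells of the same culture are not its target. Both were on a C57BL/6J background. Marrow was flushed from femurs and tibias and grown in alpha-MEM with 10% fetal bovine serum, non-adherent cells were taken off after 48 h, and no osteogenic induction was given. The number of mice, their age and any pooling are not given in the labels. The comparison asks how loss of copper uptake in the mesenchymal lineage alters the stromal cells.

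A collagen molecule is a triple helix of chains, and each chain assembles only with certain partners. Type I collagen, made of Col1a1 and Col1a2 chains, is the main fibre of bone, with types III, V and XI mixed into the same fibrils. FACIT collagens coat fibrils, type VI forms beaded filaments around cells, type IV makes the sheet of basement membranes under endothelium and around mural cells, and type X is the network collagen of hypertrophic cartilage. Chains are hydroxylated and folded in the endoplasmic reticulum, cut outside the cell and then cross-linked by lysyl oxidases, which are copper enzymes.

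There was 1 library per genotype, so no difference between WT and cKO could be tested. All intervals given are 95% intervals for counting error only, and a difference between genotypes cannot be told apart from one between these 2 cultures or library preparations. Of the deposited barcodes, 7637 WT and 5263 cKO cells were used, with a median of 9706 and 9710 UMIs (unique molecular identifiers, each marking 1 captured mRNA). The libraries shared 11 barcodes, 6 of them among the cells used. Mesenchymal-like cells numbered 3726 in WT and 1416 in cKO and differed in depth, with medians of 13945.5 and 61957 UMIs. Most of the WT cells lay in a shallow cluster (1961 WT against 197 cKO cells), while most of the cKO cells lay in a deep one (1291 against 824). When the mesenchymal-like cells were clustered again, the shallow clusters 1 (1037 and 134 cells) and 2 (877 and 79) had blood genes such as Ltf among their leading genes. Macrophage markers summed to 245 and 121 CPM in mesenchymal-like cells of WT and cKO, and neutrophil markers to 577 and 202 CPM. Their part in the collagen values was not tested. Slc31a1 itself stood at 42.4 CPM in WT and 14.3 CPM in cKO mesenchymal-like cells, against 70.1 and 72.3 CPM in macrophage-like cells. Which exons were floxed is not given, so its 3′ UMIs need not fall in the deleted part.

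The 4 upstream sequences below belong to members that the results turn on: Col3a1 and Col11a1, fibril chains that were lower in the cKO pre-osteoblast-like cells, Col10a1, found in a mural-like cluster, and Col13a1, found in endothelial-like cells. Each gives the 250 bases before the start site of RefSeq, build GRCm38.p6, 5′ to 3′ on the gene's strand, with capitals marking the CCAAT box, the TATA box (searched as TATAAA), the RUNX core (searched as TGTGGT) and the GC box (searched as GGGCGG), each on either strand. Col3a1 lies on the plus strand at chr1:45311288-45311537, Col11a1 on the plus strand at chr3:114030290-114030539, Col10a1 on the plus strand at chr10:34389731-34389980 and Col13a1 on the minus strand at chr10:61979109-61979358.
Col3a1: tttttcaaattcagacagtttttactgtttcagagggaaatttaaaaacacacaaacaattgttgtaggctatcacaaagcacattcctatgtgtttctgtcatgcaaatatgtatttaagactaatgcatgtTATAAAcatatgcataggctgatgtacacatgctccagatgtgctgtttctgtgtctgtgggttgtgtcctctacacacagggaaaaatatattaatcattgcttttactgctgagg
Col11a1: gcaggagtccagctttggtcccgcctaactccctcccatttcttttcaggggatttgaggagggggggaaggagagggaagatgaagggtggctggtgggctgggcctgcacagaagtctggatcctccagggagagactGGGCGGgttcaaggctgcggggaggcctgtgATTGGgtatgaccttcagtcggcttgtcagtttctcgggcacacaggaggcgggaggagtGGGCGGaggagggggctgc
Col10a1: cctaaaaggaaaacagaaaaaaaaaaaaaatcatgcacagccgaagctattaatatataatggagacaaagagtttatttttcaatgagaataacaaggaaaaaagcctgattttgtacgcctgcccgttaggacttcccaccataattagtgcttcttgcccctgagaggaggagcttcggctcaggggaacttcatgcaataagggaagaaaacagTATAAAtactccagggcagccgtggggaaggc
Col13a1: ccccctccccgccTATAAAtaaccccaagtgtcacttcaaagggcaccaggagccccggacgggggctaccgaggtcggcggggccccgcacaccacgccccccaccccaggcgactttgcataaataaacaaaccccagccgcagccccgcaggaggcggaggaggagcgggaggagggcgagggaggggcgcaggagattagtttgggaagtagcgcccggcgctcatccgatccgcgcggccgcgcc

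Col3a1, Col10a1 and Col13a1 each held 1 TATAAA, starting 117, 32 and 237 bases before the start site, and Col11a1 held 1 CCAAT and 2 GGGCGG. RefSeq windows were found for 35 of the 44 members, with 38 start sites. TATAAA was present in 5 of these 38 windows (13.2%) against 12.4% of 32851 windows of all genes, CCAAT in 13 (34.2% against 33.8%), TGTGGT in 3 (7.89% against 14.0%) and GGGCGG in 22 (57.9% against 32.7%). A match is a run of letters, not a binding site. No window was held for Col1a1, Col2a1, Col4a3, Col5a2, Col9a3, Col12a1, Col14a1, Col22a1 and Col26a1.

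Collagen chain mRNA took 2.21% of all UMIs in WT mesenchymal-like cells (2.21% to 2.22%) and 1.97% in cKO (1.97% to 1.97%). Of the 44 members, 21 reached 10 CPM (UMIs of the gene per 1000000 UMIs, not scaled by gene length) in either library and are called measured below. Their order was alike in both libraries, headed by Col1a2 and Col1a1, which ranked 3rd and 8th of all genes in WT and made up 34.3% and 25.6% of the collagen UMIs there. Of the measured members 16 were lower and 5 higher in cKO. Only Col7a1 differed by 1.5-fold or more, upwards; over all genes with at least 10 CPM, 0.581% were that much higher and 1.15% that much lower. The median log2 ratio of cKO to WT, with 1 CPM added to both, was -0.14 over the measured members and -0.03 over all 8944 genes. In the 1683 WT and 1137 cKO cells with at least 20000 UMIs the medians were -0.12 and -0.02, again with 16 members lower and Col7a1 alone past 1.5-fold, where 0.676% of all genes were that much higher and 0.631% lower. In the 2043 WT and 279 cKO cells under 20000 UMIs, 15 of 22 measured members were lower and none by 1.5-fold, against 5.04% of all genes. There 4 were at least 1.5-fold higher (Col4a5, Col10a1, Col15a1 and Col18a1), against 4.12% of all genes.

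**Figure D1:**
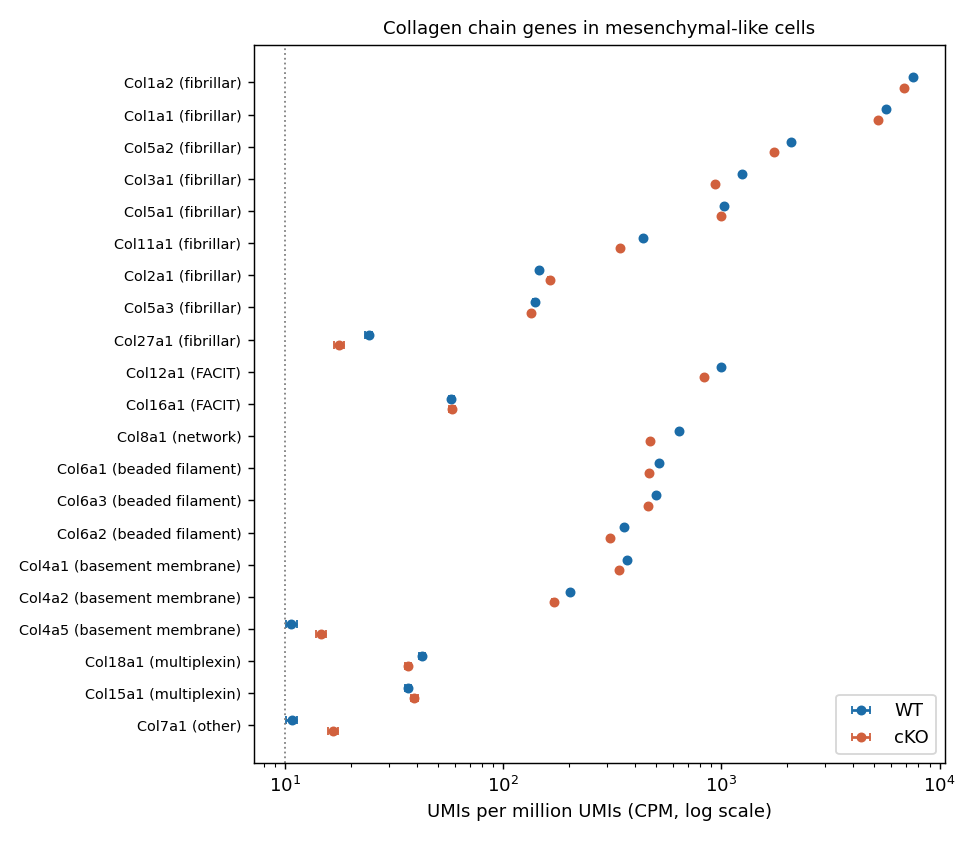
Level of each collagen chain gene with at least 10 CPM in mesenchymal-like cells (CPM, log axis; dotted line at 10 CPM), WT in blue and cKO in orange, bars showing 95% Poisson intervals. Levels span from about 10.7 CPM for Col7a1 to 7584 CPM for Col1a2 in WT, and the cKO point lies to the left of the WT point for 16 of 21 genes.

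Among fibrillar chains, the summed level was 18354 CPM for WT and 16467 CPM for cKO cells, 0.897 of WT (0.895 to 0.899). Col1a2 stood at 7584 CPM in WT and 6879 CPM in cKO, and Col1a1 at 5668 and 5247 CPM, ratios of 0.907 and 0.926. These chains together make type I collagen. Col5a2 and Col5a1, chains of the type V collagen that starts fibrils, stood at 2087 against 1749 CPM (0.838) and 1027 against 994 CPM (0.967). Col3a1, the chain of reticular fibres, stood at 1239 CPM in WT and 935 CPM in cKO (0.755, 0.748 to 0.762). Col11a1, a type XI chain that sets fibril width, stood at 436 and 342 CPM (0.785, 0.774 to 0.797).
The scarcer fibrillar chains differed in both directions. Col5a3 stood at 139 and 134 CPM (0.967), and Col27a1, a minor fibrillar chain, at 24.1 and 17.6 CPM (0.729, 0.683 to 0.778). Col2a1, the main fibre chain of cartilage, was the only measured fibrillar member above WT, at 146 and 163 CPM (1.12, 1.09 to 1.14).

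Outside the fibrils, network and FACIT chains had the lowest ratios of the larger classes. Col8a1, the short-chain network collagen of vessel walls and subendothelial matrix, stood at 635 CPM in WT and 468 CPM in cKO (0.736, 0.727 to 0.746) and carried nearly all of the network class, since Col8a2 stood at 8.21 and 6.73 CPM. Col12a1, a FACIT of load-bearing tissues, stood at 1000.2 and 831 CPM (0.831). Col16a1, the other measured FACIT, hardly differed, at 57.8 and 58.0 CPM (1.00, 0.967 to 1.04).
The 3 beaded filament chains that build type VI collagen lay close together: Col6a1 at 519 and 467 CPM (0.900), Col6a3 at 502 and 461 CPM (0.917) and Col6a2 at 357 and 308 CPM (0.862). The basement membrane chains Col4a1 and Col4a2 stood at 367 against 338 CPM (0.922) and 202 against 170 CPM (0.842). The summed basement membrane level was 581 CPM in WT and 525 CPM in cKO (0.904), but with equal weight per cell its ratio was 1.02, on the other side of 1. Col4a5, whose chain joins the Col4a3 and Col4a4 or the Col4a6 chains, was higher in cKO, at 10.7 and 14.6 CPM (1.37, 1.26 to 1.48). The multiplexins Col18a1, the source of endostatin, and Col15a1 stood at 42.4 against 36.5 CPM (0.861) and 36.6 against 39.1 CPM (1.07). Without the small mural-like cluster described below, Col15a1 lay on the other side of 1, at 0.986 (0.939 to 1.04). Col18a1 and Col4a1 were then further below 1, at 0.801 (0.762 to 0.841) and 0.896 (0.882 to 0.911).
Col7a1, which forms anchoring fibrils, was the member furthest above WT, at 10.7 CPM (10.1 to 11.3) in WT and 16.6 CPM (15.7 to 17.5) in cKO, a ratio of 1.55 (1.43 to 1.68). Its ratio stayed between 1.51 and 1.58 over 12 other ways of choosing or scaling the cells. None of these took the cells under 20000 UMIs alone, where Col7a1 was not among the members at least 1.5-fold higher.

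The other 23 members did not reach 10 CPM. Among them were the cartilage chains Col9a1, Col9a2 and Col9a3, at 0.0771, 0.0675 and 0.444 CPM in WT and 0.0600, 0.0720 and 0.372 CPM in cKO. Col11a2, another chain of cartilage, stood at 1.20 and 1.33 CPM. The basement membrane chains Col4a3, Col4a4 and Col4a6 stood at 0.260, 1.15 and 0.231 CPM in WT and 0.408, 1.54 and 0.408 CPM in cKO. Col8a2, given above, was the highest of the others in WT, followed by Col20a1 (4.43 and 5.86 CPM), Col23a1 (3.94 and 2.89 CPM), Col24a1 (3.58 and 4.64 CPM), Col28a1 (3.11 and 4.38 CPM) and Col10a1 (3.09 and 7.93 CPM). The remaining 10 lay between 0.0386 CPM (Col6a6 in WT) and 1.15 CPM (Col22a1 in cKO).

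Among the mesenchymal-like cells, 3 clusters were deep and well filled in both libraries: cluster 0 (812 WT and 535 cKO cells, led by H19, Cnn1 and Tagln), cluster 3 (484 and 379, cycling-like) and cluster 4 (240 and 208, pre-osteoblast-like, led by Ibsp and Slc13a5). Clustering left the collagen genes out. In all 3 clusters fibrillar chains summed to a lower level in cKO, at 0.919, 0.917 and 0.911 of WT. In cluster 0 and in cluster 3, 1 of 21 measured members differed by 1.5-fold or more, Col7a1, which was higher (1.54 and 1.52), where 0.808% and 0.814% of all genes were that much higher. No member was that much lower, against 0.473% and 0.535% of all genes.

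The pre-osteoblast-like cluster stood apart from the other 2 in its collagen make-up. Col1a2 stood there at 10085.5 CPM in WT and 9331 CPM in cKO, 1.46 and 1.49 times the level of clusters 0 and 3 together. Col1a1 followed with 7253 and 7201 CPM, 1.47 and 1.52 times. Col11a1, at 787 and 491 CPM, was 2.18 times (2.13 to 2.23) as high as in clusters 0 and 3 in WT and 1.62 times (1.57 to 1.66) in cKO.
Other chains were below clusters 0 and 3, and the split did not follow the collagen classes. Col4a1 stood at 92.0 and 83.9 CPM, 0.237 and 0.225 of clusters 0 and 3, and Col8a1 at 275 and 188 CPM, 0.409 and 0.360 of them. Col2a1 stood at 32.1 and 44.5 CPM, 0.200 and 0.228 of them. Among fibrillar chains Col5a3 (0.468 and 0.668) and Col3a1 (0.868 and 0.673) were below as well, while the basement membrane chain Col4a5 was above (1.47 and 1.39). The minor transmembrane chain Col23a1 passed 10 CPM in this cluster and in WT, at 11.6 against 7.65 CPM.

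Between genotypes, 5 of the 23 members measured in the pre-osteoblast-like cluster were at least 1.5-fold lower in cKO and 1 was at least 1.5-fold higher, where 1.99% and 1.34% of all genes were. Col3a1 stood at 1099 CPM in WT and 671 CPM in cKO (0.611, 0.595 to 0.627). Col11a1 stood at 787 CPM (772 to 803) and 491 CPM (480 to 502), a ratio of 0.624.
The others were scarce chains: Col15a1 at 27.9 and 17.3 CPM (0.622, 0.529 to 0.732), Col27a1 at 22.3 and 12.8 CPM (0.574) and Col23a1 (0.659, 0.512 to 0.845). Col12a1 (1073 and 729 CPM, 0.679) and Col8a1 (0.684) were just short of 1.5-fold, while Col1a1 was level at 0.993 (0.984 to 1.00) and Col1a2 at 0.925. Col7a1 was the higher one, at 8.40 and 13.3 CPM (1.59, 1.25 to 2.02), and Col2a1 and Col5a3 had ratios of 1.39 and 1.36.
In the same cells the osteoblast-lineage genes Ibsp and Alpl stood at 451 against 203 CPM and 637 against 381 CPM, and Spp1 at 1603.3 against 2969 CPM. The 14 pre-osteoblast markers summed to 3667 CPM in WT and 4508 CPM in cKO, with Spp1 the largest of them. Runx2 stood at 520 and 490 CPM and Sp7 at 91.8 and 97.2 CPM. The same sum was not far lower elsewhere, at 3028 and 3442 CPM in cluster 0 and 2862.5 and 3528 CPM in cluster 3. In the small mural-like cluster described below it was 2918 and 4642 CPM, in cKO above the pre-osteoblast-like cluster. The part of a different mix of cells within the pre-osteoblast-like cluster was not tested.

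**Figure D2:**
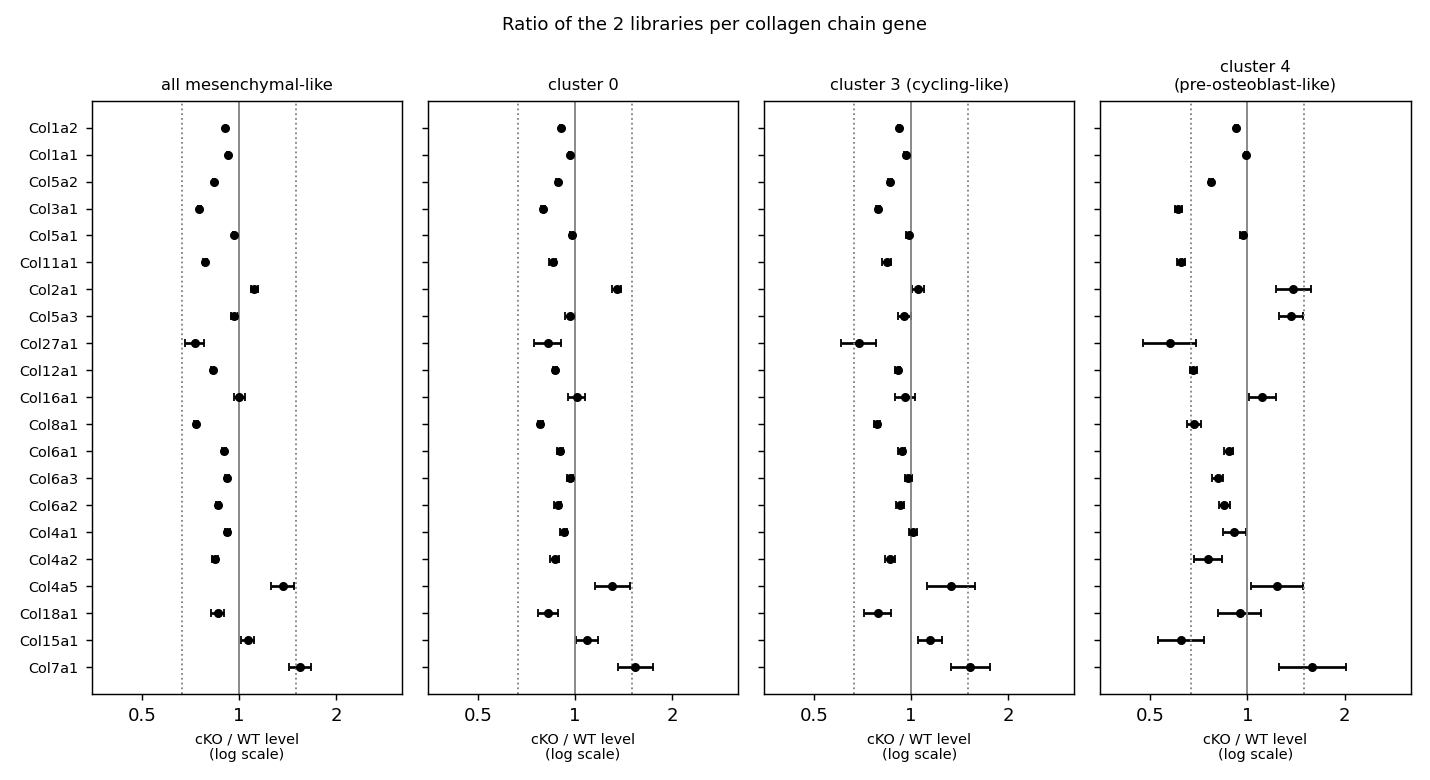
Ratio of cKO to WT level (log axis) for the 21 collagen chain genes with at least 10 CPM in mesenchymal-like cells, in all mesenchymal-like cells and in clusters 0, 3 and 4. Bars are 95% exact intervals for counting error, the solid line marks 1 and the dotted lines 1.5-fold; Col3a1 and Col11a1 lie beyond the left dotted line in cluster 4 only, at 0.611 and 0.624.

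A small mural-like cluster (cluster 8, 12 WT and 19 cKO cells, led by Rgs5 and Myh11) carried another set of chains. Mural cells are the pericytes and smooth muscle cells that wrap vessels, and the 12 markers of myofibroblasts or mural cells summed to 12922 CPM in WT and 9907 CPM in cKO. All 12 were also detected in cluster 0 (7896 and 8164 CPM) and cluster 3 (6963 and 7208 CPM). Col4a1 and Col4a2 stood at 3294 and 1724 CPM in WT and 3046 and 1458 CPM in cKO, close to the endothelial-like levels. Col8a1 (2077 and 1694 CPM), Col6a3 (2350 and 1769 CPM), Col15a1 (432 and 646 CPM), Col18a1 (694 and 669 CPM) and Col5a3 (555 and 512 CPM) were also above their levels in clusters 0, 3 and 4. The FACIT Col14a1 stood at 59.1 and 48.1 CPM, against 0.858 and 0.936 CPM over all mesenchymal-like cells.
Col10a1 was also high in this cluster, at 212 CPM (171 to 259) in WT and 720 CPM (655 to 790) in cKO. It had a UMI in 7 of 12 WT and 13 of 19 cKO cells, and these few cells held 29.1% and 67.9% of all its mesenchymal-like UMIs. The cKO value rested on few cells, because 2 of the 19 held 63.5% of the UMIs and 1 cell held 167 of 449. Without the cluster, Col10a1 stood at 2.20 CPM in WT and 2.56 CPM in cKO (1.17, 0.962 to 1.41), where all mesenchymal-like cells gave a ratio of 2.57.
Col10a1 lies at chr10:34389981-34397085 on the plus strand (GRCm38) overlapping Nt5dc1 on the other strand, whose own level in the cluster was 22.7 and 35.3 CPM. Of the 10 chondrocyte markers, 6 were at 0 in the WT cells and 5 in the cKO cells of the cluster. Chad, Cnmd, Matn1 and Hapln1 were at 0 in both, Sox9 stood at 2.27 and 11.2 CPM and Acan at 13.6 and 32.1 CPM, with Sox5, at 368 and 180 CPM, making up most of the list.

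**Figure D3:**
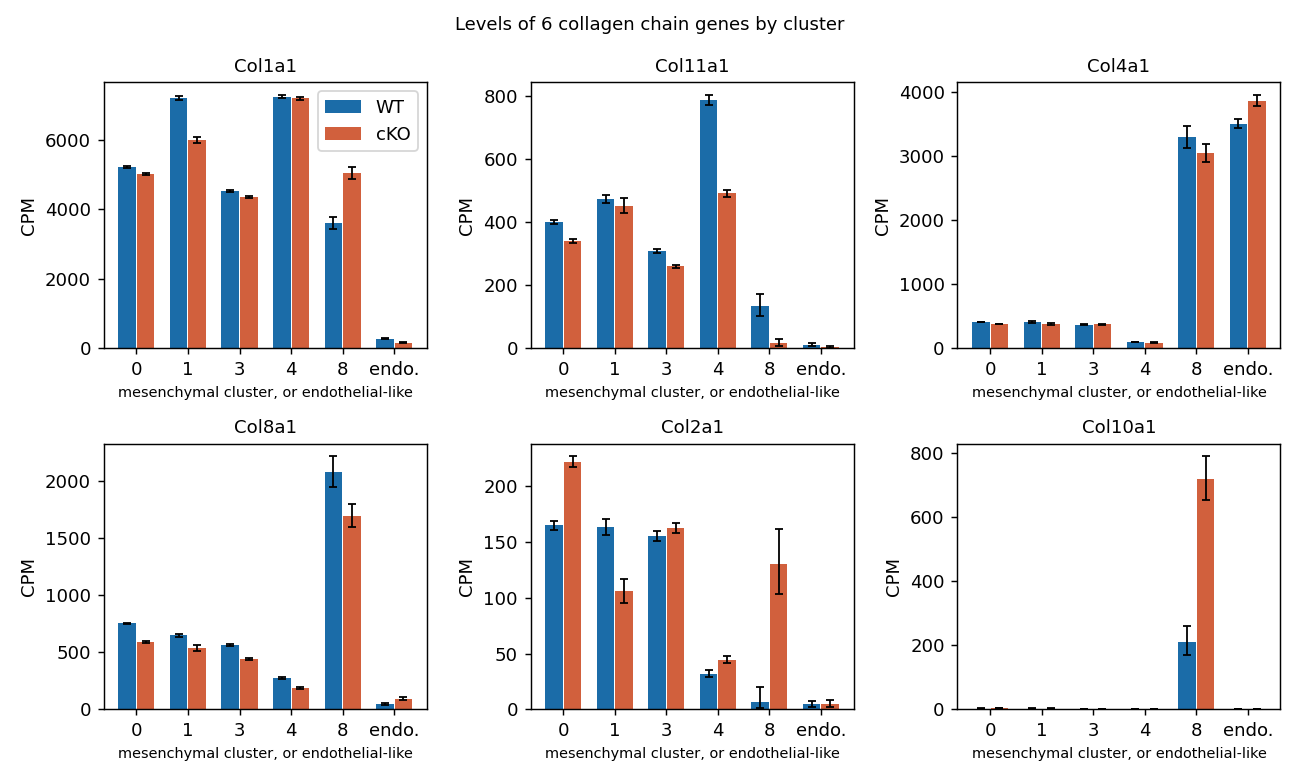
Levels (CPM) of 6 collagen chain genes in mesenchymal clusters 0, 1, 3, 4 and 8 and in endothelial-like cells, WT in blue and cKO in orange, with 95% Poisson intervals; cluster 1 is the largest shallow one. Col11a1 is highest in cluster 4 (787 CPM in WT), Col4a1 in endothelial-like cells and Col8a1 in cluster 8. Col10a1 passes 10 CPM in cluster 8 alone of the groups drawn, at 212 and 720 CPM.

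Col2a1 was spread unevenly over the mesenchymal-like cells. Its ratio of cKO to WT differed between clusters, at 1.35 (1.30 to 1.39) in cluster 0 (165 and 221 CPM), 1.05 (1.01 to 1.09) in cluster 3 (155 and 162 CPM) and 0.646 (0.576 to 0.723) in the shallow cluster 1 (163 and 106 CPM, 1037 WT and 134 cKO cells). These differences between clusters were not tested. When the deep cells were thinned to 20000 UMIs each, 60.7% of WT and 60.4% of cKO cells had no Col2a1 UMI, and the coefficient of variation was 2.51 and 2.49. Before thinning, the tenth of deep cells outside the mural-like cluster with the most Col2a1 held 72.3% of its UMIs in WT and 68.5% in cKO, with up to 239 and 298 UMIs in a cell. Over all mesenchymal-like cells the 10 chondrocyte markers summed to 31.8 and 38.3 CPM. Acan, the cartilage proteoglycan, stood at 0.116 and 0.408 CPM, while Sox9 and Sox5, cartilage transcription factors that other mesenchymal cells also express, stood at 9.83 and 11.9 CPM in WT and 14.1 and 14.2 CPM in cKO.
By contrast, Col1a2 and Col1a1 varied little, with coefficients of 0.329 and 0.377 in WT and 0.380 and 0.432 in cKO, and no deep cell lacked either. Across the thinned deep cells, the log counts of Col4a1 and Col4a2 had r = 0.74 in WT (1683 cells) and 0.78 in cKO (1137 cells), Col1a1 and Col1a2 had 0.73 and 0.73, and Col6a1 and Col6a2 had 0.67 and 0.67. These were the chain pairs with the highest values in WT. The lowest were between Col11a1 and Col4a1, at -0.35 and -0.40. These are descriptions, since the cells of a library share its culture and preparation. Col4a1 and Col4a2 lie head to head on chromosome 8 with starts 21 bases apart.

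Endothelial-like cells (103 WT and 64 cKO) had a basement membrane profile. All 12 endothelial markers were detected in both libraries, at a sum of 7691 and 8248 CPM. Prrx1 stood at 12.8 and 6.95 CPM against 457 and 450 CPM in mesenchymal-like cells. The endothelial markers and a low Prrx1 level were used to choose these cells, so neither is separate evidence of what they are. Col4a1 stood at 3510 CPM (3442 to 3578) in WT and 3872 CPM (3786 to 3959) in cKO, 956% and 1144% of the mesenchymal-like level. Col4a2 stood at 1780 and 1740 CPM and Col18a1 at 710 and 962 CPM, with Col15a1 at 395 and 291 CPM. Thinned to 3000 UMIs, 99.0% of WT and 98.4% of cKO endothelial-like cells had a Col4a1 UMI, against 60.9% and 53.3% of mesenchymal-like and 5.67% and 1.86% of neutrophil-like cells. The unthinned shares were 99.0% and 98.4%, 85.3% and 87.6%, and 12.1% and 9.88%, at median depths of 27638 and 29454.5, 13945.5 and 61957, and 6857 and 8947.5 UMIs. Of the cells of each kind, 7 and 0 endothelial-like, 418 and 96 mesenchymal-like and 31 and 11 neutrophil-like cells were too shallow to thin.
Col13a1, a transmembrane collagen of cell junctions, stood at 80.2 CPM (70.4 to 91.1) in WT and 94.3 CPM (81.4 to 109) in cKO endothelial-like cells, with 0.627 and 0.216 CPM in mesenchymal-like and 0.370 and 0.0431 CPM in macrophage-like cells. It had a UMI in 48 of 103 and 33 of 64 endothelial-like cells.

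Of the 18 members measured in endothelial-like cells, 2 were at least 1.5-fold higher in cKO and 6 at least 1.5-fold lower, where 5.65% and 4.90% of all genes were. The higher ones were Col8a1, at 44.2 and 93.8 CPM (2.12, 1.69 to 2.68), and Col5a3, at 13.5 and 26.3 CPM (1.95, 1.27 to 3.02). Both ratios turned below 1, to 0.904 and 0.732, when the whole cluster was taken. That cluster also held 124 WT and 22 cKO cells that carried mesenchymal markers as well, and 10 and 6 plasma cell-like cells. The endothelial-like cells themselves fell into smaller clusters of 53, 28, 15 and 7 WT and 20, 13, 21 and 10 cKO cells. The part of this mix in the ratios was not tested.
The 6 lower ones were chains abundant in mesenchymal-like cells: Col1a1 at 267 and 153 CPM, Col1a2 at 265 and 165 CPM, Col3a1 at 53.6 and 29.8 CPM, Col6a1 at 32.7 and 18.4 CPM, Col6a2 at 19.6 and 12.4 CPM, and Col11a1 at 10.5 and 2.98 CPM. Neutrophil-like cells differed in the same direction, with collagen at 0.0942% of UMIs in WT and 0.0512% in cKO. Osteoclast-like cells differed in the other direction, at 0.0937% and 0.328%. The free RNA of the 2 libraries and endothelial expression cannot be told apart for these 6 genes. The remaining measured members were Col5a2 (168 and 249 CPM), Col5a1 (51.2 and 38.2 CPM), Col12a1 (47.2 and 42.2 CPM), Col6a3 (37.4 and 39.2 CPM) and Col27a1 (28.7 and 27.3 CPM).

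In most blood classes, the chains abundant in mesenchymal-like cells were present at a low fraction of the level there. For the 15 members with at least 100 CPM in mesenchymal-like cells, macrophage-like cells (2808 WT and 2534 cKO) had a median of 7.76% of that level in WT, from 4.43% for Col8a1 to 11.2% for Col6a1, and of 7.48% in cKO with the same lowest and highest gene. Neutrophil-like cells (313 and 334) had medians of 4.24% and 2.30%, and B cell-like cells (46 and 57) 4.18% and 3.10%. Thinned to 3000 UMIs, a Col1a1 UMI was found in 99.9% and 99.2% of mesenchymal-like cells, in 53.5% and 38.4% of neutrophil-like and in 15 of 30 and 17 of 38 B cell-like cells. Unthinned, the shares were 99.9% and 99.9%, 85.6% and 73.4%, and 78.3% and 50.9%, and the B cell-like medians were 4070 and 3628 UMIs, with 16 and 19 cells too shallow to thin. The source of these Col1a1 UMIs in blood cells was not tested. Of 15 members measured in macrophage-like cells, 14 were lower in cKO, with a median log2 ratio of -0.20 against -0.02 over all genes. Col8a1, at 28.2 and 18.8 CPM, was 1.5-fold lower, where 1.10% of all genes were. Whether these differences lie in the macrophage-like cells or in free RNA was not tested.

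Some scarcer chains were above the mesenchymal-like level in a blood class. Megakaryocyte-like cells, the platelet-forming cells, had Col18a1 at 314 CPM (224 to 428) in WT and 191 CPM (87.6 to 363) in cKO, 740% and 524% of that level, on 40 UMIs from 11 cells and 9 UMIs from 8 cells. Neutrophil-like cells had Col18a1 at 3.93 and 4.40 CPM. In neutrophil-like cells the type XI chain Col11a2 stood at 6.29 CPM (3.59 to 10.2) and 6.46 CPM (4.05 to 9.77), 526% and 485% of the mesenchymal-like level, on 16 and 22 UMIs.

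Osteoclast-like cells (31 WT and 79 cKO), the bone-resorbing cells marked by Acp5 and Ctsk, also had values apart from those of macrophage-like cells. Col27a1 stood at 71.2 CPM (52.4 to 94.7) in WT and 43.4 CPM (34.1 to 54.5) in cKO, 295% and 247% of the mesenchymal-like level, and had a UMI in 16 of 31 and 36 of 79 cells. Macrophage-like cells had a Col27a1 UMI in 1.67% and 0.987% of cells, at median depths of 9212 and 7705 UMIs against 22347 and 21637, and thinned to 3000 UMIs it was found in 9 of 30 WT and 8 of 72 cKO osteoclast-like cells against 0.697% and 0.546% of macrophage-like cells. Col19a1, a FACIT, stood at 7.58 and 12.9 CPM in osteoclast-like cells, against 0.0964 and 0.108 CPM in mesenchymal-like cells, on 5 and 22 UMIs.
The collagen share of osteoclast-like cells was 0.0937% of UMIs in WT and 0.328% in cKO, the only blood class with a higher value in cKO among macrophage-, neutrophil-, B and T or NK cell-like cells. Prrx1 differed in the same direction, at 7.58 and 69.3 CPM, and the 12 mesenchymal markers summed to 182 and 617 CPM. Their part in the collagen share was not tested. With the suspected doublets kept, the shares were 0.343% and 0.410%.

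**Figure D4:**
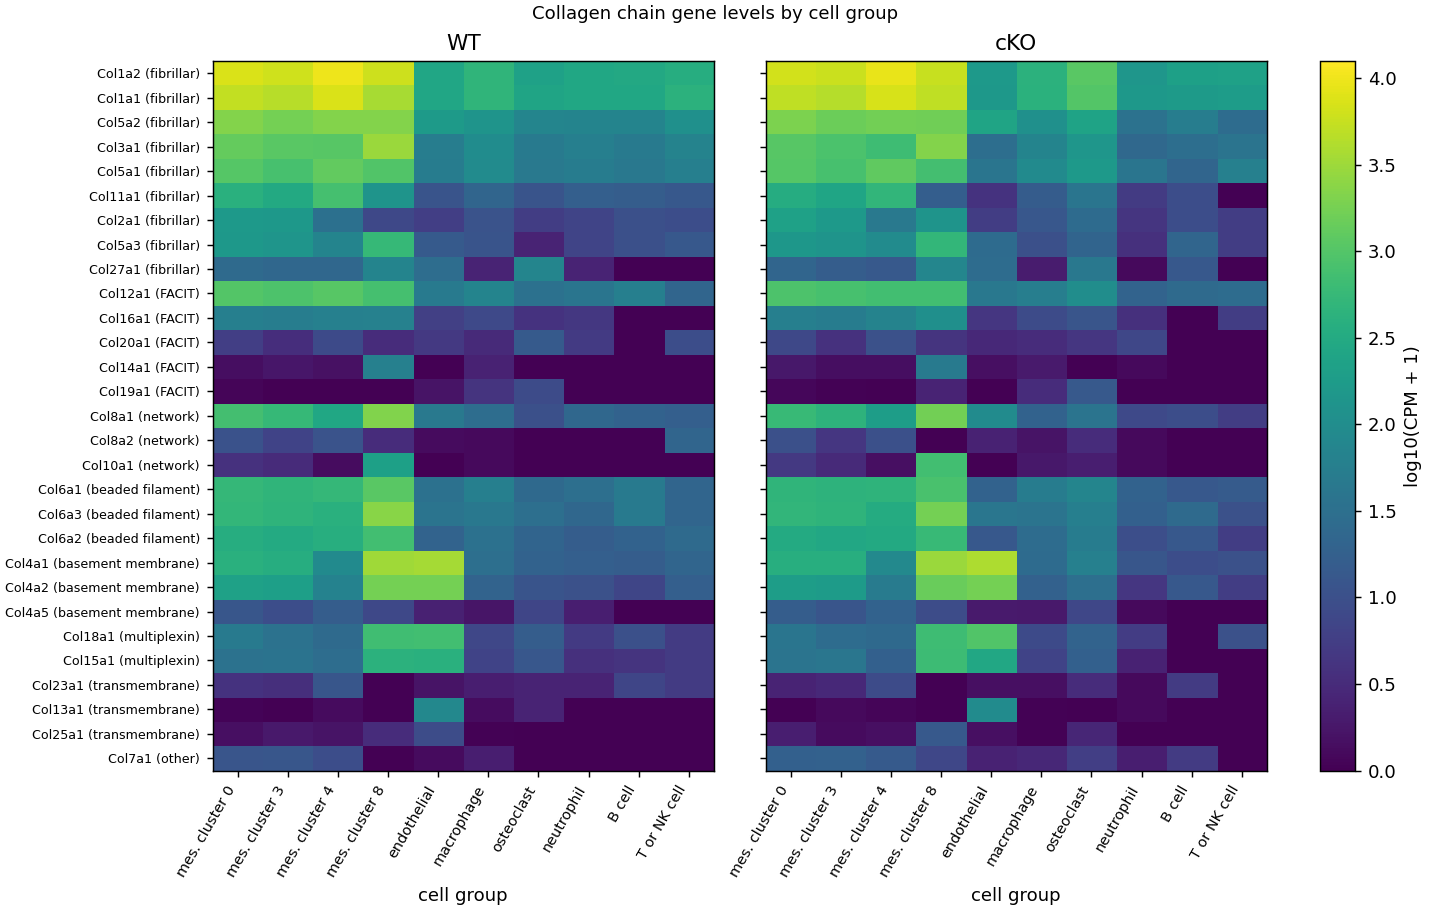
Colour map of collagen chain gene levels, log10(CPM + 1), in WT (left) and cKO (right); rows are members with at least 10 CPM in any mesenchymal cluster drawn, endothelial-, macrophage- or osteoclast-like cells, and columns are cell groups (mes., mesenchymal). Type I and V chains fill the mesenchymal columns, Col4a1 and Col4a2 peak in mesenchymal cluster 8 and endothelial-like cells, and Col13a1 stands out in the endothelial column only.

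Type I collagen has 2 Col1a1 chains for each Col1a2 chain, yet UMIs of Col1a2 outnumbered those of Col1a1 in mesenchymal-like cells. The ratio of Col1a1 to Col1a2 UMIs was 0.747 (0.745 to 0.750) in WT and 0.763 (0.760 to 0.766) in cKO, and 0.719 and 0.756 in deep cells. In mesenchymal-like cells under 20000 UMIs it was 0.924 and 1.10, and in macrophage-like cells 0.979 (0.957 to 1.00) and 0.957 (0.931 to 0.984). Neutrophil-like cells had 0.977 and 1.04. Within a library the ratio was thus higher in shallow cells and in these blood cells than in deep mesenchymal-like cells, beyond counting error. The part of depth and of free RNA in it was not tested. A UMI ratio of 2 genes also depends on how well each 3′ end is captured.
For Col4a1 over Col4a2, which join as 2 to 1 in the type IV molecule, the UMI ratio was 1.82 and 1.99 in mesenchymal-like and 1.97 and 2.23 in endothelial-like cells.

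**Figure D5:**
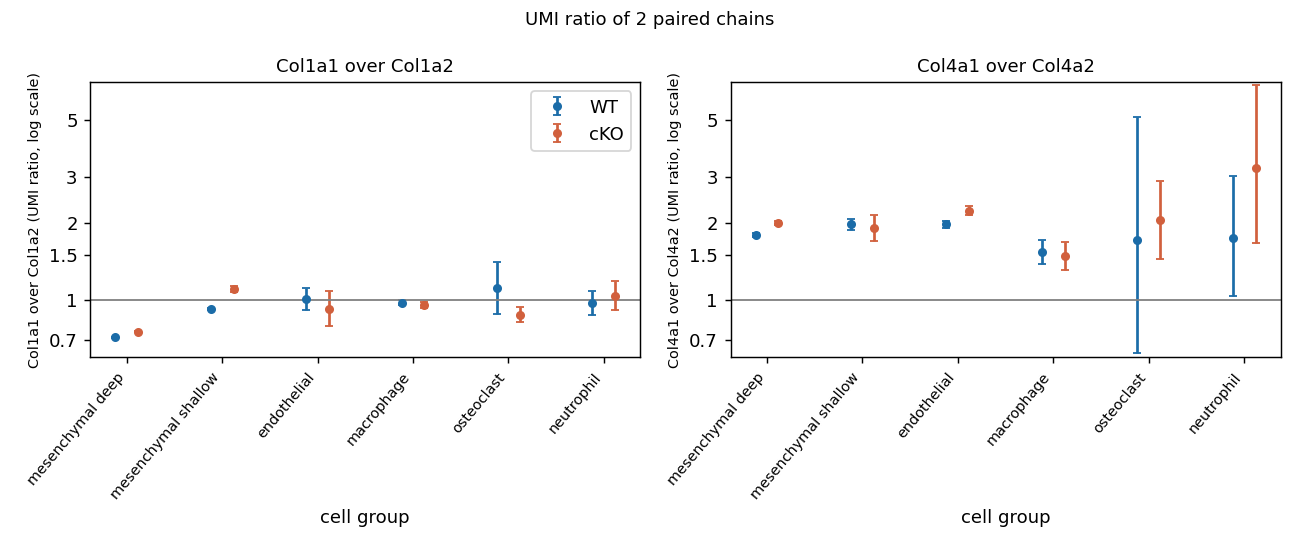
Ratio of Col1a1 to Col1a2 UMIs (left) and Col4a1 to Col4a2 UMIs (right), log axes, in WT (blue) and cKO (orange) with 95% exact intervals; deep and shallow mean mesenchymal-like cells with at least or under 20000 UMIs. Of the groups drawn, deep mesenchymal-like cells have the lowest Col1a1 to Col1a2 ratios (0.719 and 0.756), and the Col4a1 to Col4a2 points of mesenchymal- and endothelial-like cells lie between 1.79 and 2.23.

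The machinery that modifies collagen lay close to all genes in its ratio of cKO to WT. Of 13 measured genes for chain hydroxylation and glycosylation (15 on the list), none differed by 1.5-fold, 6 were higher and 7 lower (4 and 9 in deep cells), and the median log2 ratio was -0.03, as over all genes. The prolyl hydroxylase subunits P4ha1 (280 and 253 CPM, 0.903) and P4ha2 (246 and 219 CPM, 0.893) were the furthest below WT, and P4ha3 the furthest above (55.8 and 60.1 CPM, 1.08). Of the 18 measured folding and export genes (19 on the list) none differed by 1.5-fold, with a median of -0.02. Serpinh1, the collagen chaperone HSP47, stood at 1534 and 1490 CPM, Kdelr3 at 109 and 122 CPM (1.12), Fkbp10 at 249 and 269 CPM (1.08) and Rcn3 at 261 and 242 CPM (0.928).
For propeptide processing, 7 of 11 genes were measured and none differed by 1.5-fold, with a median of 0.01. Pcolce2, an enhancer of the procollagen C-proteinase, was the furthest from WT (39.0 and 50.5 CPM, 1.29), while Pcolce (194 and 172 CPM, 0.887) and the proteinase Bmp1 (290 and 266 CPM, 0.919) were below it. Among 8 measured receptor and uptake genes of 12, only Mrc1 differed by 1.5-fold, at 26.7 and 11.9 CPM (0.444) and, in deep cells, at 17.4 and 10.9 CPM (0.626). Mrc1 is a mannose receptor of macrophages and is itself among the 12 macrophage markers. Their sum, given above and thus holding Mrc1, differed in the same direction. The part of macrophage RNA in the Mrc1 values was not tested.
Of 12 measured genes for laminins, nidogens and other basement membrane partners (17 on the list), 10 were lower in cKO, with a median of -0.15 against -0.03 over all genes. None differed by 1.5-fold. Lama2 stood at 24.9 and 18.6 CPM (0.746), Lama1 at 32.5 and 25.7 CPM (0.791) and Lama4 at 82.7 and 65.6 CPM (0.793), all laminin alpha chains, while the proteoglycan Hspg2 (1.06) and Npnt (1.16) were above WT. This list did not hold one direction over the cells. In cells under 20000 UMIs 10 of 12 were higher, with a median of 0.18, and Nid2 was at least 1.5-fold higher, against 4.12% of all genes. In the pre-osteoblast-like cluster 5 were higher and 7 lower, with a median of -0.03. Lama2 was at least 1.5-fold higher there and Lama4 at least 1.5-fold lower, where 1.34% and 1.99% of all genes were. In cluster 3 Lama2 was instead at least 1.5-fold lower, against 0.535% of all genes.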

How the data were processed

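The deposited count tables hold whole-number UMI counts per gene and cell barcode, made by the authors with Cell Ranger 7.1.0, per the file headers. Per the submitters' processing notes the build was mm10 (GRCm38) and Seurat was also used, with no role stated. The sources used here do not state the gene annotation or whether introns were counted. The deposited tables list 9125 WT and 6140 cKO barcodes with 152398639 and 126031142 UMIs.

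Barcodes were kept from 500 genes and 1000 UMIs upwards when mitochondrial genes took no more than 15% of UMIs. The Scrublet method's automatic threshold marked 0.0245% and 0.0363% of them, too few to be of use, so the highest scores were removed at 0.8% per 1000 cells (534 and 243). Cells were clustered with scanpy 1.11.5 (2000 variable genes without collagen chain genes, 30 components, 15 neighbours, Leiden resolution 0.5) and named from marker lists. Part of the endothelial-like cluster with a Prrx1 level over 10% of the mesenchymal-like one was set apart, as were its plasma cell-like cells. Both choices were made after seeing the clusters. UMIs were summed per class and library and divided by all UMIs (CPM). Intervals are exact (Poisson for levels, conditional binomial for ratios, Clopper-Pearson for shares). For log2 ratios 1 CPM was added to both. The ratio interval was tried on simulated Poisson counts: for the 2 whole libraries with 9297 genes, 95.0% of intervals held the true value. Spread between cells, cultures or library preparations was not simulated. The simulation therefore checks the calculation only, not how well the intervals hold for clusters of few cells.

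With 1 library per group no test was possible. Collagen chain genes that reached 10 CPM in mesenchymal- or endothelial-like cells of WT or cKO are all named. The 23 scarcer ones are given by count, and by level where they mark cartilage or basement membrane, and Col10a1, Col11a2, Col13a1, Col14a1, Col19a1 and Col23a1 were singled out after their values were seen. Of each list of other genes, those at least 1.5-fold apart or up to 3 with the largest ratios are named. Serpinh1, Hspg2 and Npnt were added after seeing values. The members and lists were chosen with earlier results of these data known. Coordinates come from GENCODE M21, which held all 44 members. Alternatives covered cell filters, doublets, clustering, cell choice, weighting and scaling, the last with edgeR 4.0.16.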

Additional observations from a re-analysis of the deposited data

Results flagged for a closer look

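In endothelial-like and mesenchymal-like cells, 2 members had opposite ratios of cKO to WT, each with counting intervals off 1 and one of them at least 1.5-fold. Col8a1 stood at 0.736 (0.727 to 0.746) in mesenchymal-like and 2.12 (1.69 to 2.68) in endothelial-like cells. Col5a3 stood at 0.967 (0.944 to 0.992) and 1.95 (1.27 to 3.02). In the whole endothelial-like cluster, before parts of it were set apart, both endothelial-like ratios turned below 1. Within the mesenchymal-like cells, Col15a1 had a ratio of 0.622 (0.529 to 0.732) in the pre-osteoblast-like cluster 4, against 1.09 (1.01 to 1.17) in cluster 0 and 1.14 (1.05 to 1.25) in the cycling-like cluster 3. With 1 library per genotype these differences between cell groups were not tested.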

How the results depend on the processing

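With 1 library per group no replicate could be left out. No paired analysis was possible because each group has 1 library. Of 21 measured members in mesenchymal-like cells, 19 kept their side of 1 under all 12 alternatives. Col4a1 and Col16a1 did not, with ranges of 0.915 to 1.02 and 0.962 to 1.02. Leaving out the mural-like cluster, which is not among the 12, also took Col15a1 across 1, to 0.986. Of the alternatives, 3 alternatives were chosen after seeing the data (cluster 7 added, clusters 0, 3 and 4 only, and the whole endothelial-like cluster). No scaling moved the median of all genes by more than 0.03 on the log2 scale. The cause of each change below was not tested.

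All summed ratios below are cKO over WT. With the stricter cell filter the ratios that moved were fibrillar 0.891, basement membrane 0.926, multiplexin 0.995 and all collagen 0.886. In cells with a Prrx1 UMI, fibrillar was 0.901 and all collagen 0.895. In cells with at least 20000 UMIs, fibrillar was 0.917, network 0.756, beaded filament 0.909 and all collagen 0.909. With equal weight per cell, fibrillar was 0.857, FACIT 0.874, network 0.8003, beaded filament 0.888, basement membrane 1.02, multiplexin 1.08 and all collagen 0.864. Without collagen in the total, fibrillar was 0.895 and all collagen 0.889. With the TMM factor of edgeR, fibrillar was 0.915, FACIT 0.859, network 0.761, beaded filament 0.913, basement membrane 0.921 and all collagen 0.908. In clusters 0, 3 and 4 only, fibrillar was 0.927, FACIT 0.853, beaded filament 0.912, multiplexin 0.909 and all collagen 0.916. With cluster 7, fibrillar was 0.889, beaded filament 0.889 and all collagen 0.883.

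Members at least 1.5-fold higher numbered 1 (Col7a1), but 0 with a minimum of 50 CPM, 3 with equal weight per cell (Col4a5, Col7a1 and Col10a1) and 6 with no minimum. Those at least 1.5-fold lower numbered 0, but 3 with no minimum. With doublets kept, the collagen share was 2.20% and 1.96% in mesenchymal-like, 0.167% and 0.140% in macrophage-like, 0.343% and 0.410% in osteoclast-like and, in cKO, 0.0573% in neutrophil-like cells. In the whole endothelial-like cluster, the basement membrane ratio was 0.998 instead of 1.06 and multiplexin 1.06 instead of 1.13, and Col8a1 and Col5a3 turned to 0.904 and 0.732. The Col1a1 to Col1a2 UMI ratio of WT was 0.745 with the stricter filter, and of WT and cKO 0.719 and 0.756 in deep cells, 0.846 and 0.812 with equal weight per cell, and 0.713 and 0.758 in clusters 0, 3 and 4. Depth limits the small classes: cluster 8 and the osteoclast-, B, T or NK and megakaryocyte-like cells had under 100 cells in each library, and the endothelial-like cells 64 in cKO.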

Other observations

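A cluster of 163 WT and 385 cKO cells was left unnamed, although its markers came nearest to the mesenchymal ones. It was led by Cnn1 and Tagln, contractile genes, with Hspb1, a heat shock gene, and H19, an imprinted non-coding RNA, and its cells were shallow, with medians of 2656 and 2354 UMIs. Mitochondrial genes took a median of 0.246% and 0.1799% of their UMIs, against 3.43% and 3.99% in the largest deep mesenchymal-like cluster. Prrx1 stood there at 378 and 302 CPM, near the mesenchymal-like level of 457 and 450 CPM. Collagen chains took only 0.394% of its UMIs in WT and 0.263% in cKO, against 2.21% and 1.97% in mesenchymal-like cells. Col1a1 stood at 1081 and 716 CPM and Col3a1 at 189 and 159 CPM.

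Among mesenchymal-like cells, the summed collagen share was lowest in the cycling-like cluster 3, at 1.87% in WT and 1.71% in cKO, of the 3 clusters with many deep cells. It was 2.20% and 2.00% in cluster 0 and 2.58% and 2.31% in the pre-osteoblast-like cluster 4. The mural-like cells had the highest shares of these 4 groups in both libraries, 3.03% and 2.85%, with basement membrane and beaded filament chains at 5027 and 4224 CPM in WT.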
